A study of Homo sapiens with 8 samples.

Results

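The change in guide abundance over the third week of Cas13d induction, from Day 14 to Day 21, was measured in a growth screen of A375 cells, an established human melanoma line. It rests on 4 of the 8 libraries of the screen, which are Day 14 and Day 21 in replicates 1 and 2, and was computed for 1223 of the 1250 targeted genes, those with at least 3 guides. For each guide and replicate the Day 14 log2 fold change was subtracted from that of Day 21, so that the Day 0 reference cancels. The median of the non-targeting guides of the replicate was then subtracted, and the guides of a gene were averaged. A negative value means that guides against the gene were on average below the median non-targeting guide over that week. Gene values are means and their 0 is a median, so guides skewed to low values can average below 0. Guides against control genes had means of −0.069 and −0.022 on this scale in replicates 1 and 2, against medians of 0.021 and 0.0054. All values below are on this log2 scale unless another is named.

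All 8 libraries came from a single clonal A375 line of genotype TetO-RfxCas13d, in which the RNA-guided nuclease RfxCas13d is under a tetracycline-responsive promoter and the guides were delivered by lentivirus. Cells at Day 0 were labelled as untreated, and cells at Day 7, 14 and 21 as treated with 1 ug/ml doxycycline, with 2 replicates at each day. What was sequenced is the guide cassette in genomic DNA, so no transcript level, including that of the targeted RNAs, can be read from these values, and the cell line cannot be checked against expression markers. The deposited table names the replicates in a column called biological_replicate. Whether they were separate cultures was not stated, so p-values measure only the spread between these samples.

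Cas13d is guided by a short RNA to a complementary transcript and cuts it, leaving the gene itself intact. In a pooled screen every cell carries a guide as a genomic tag, and a guide whose target the cell needs for growth is diluted out of the pool at each division. Dropout accumulates with time, and it can level off when the cells that still carry a guide divide as fast as the rest, or when the guide is already too rare to be counted. Housekeeping machines such as the ribosome, the spliceosome, the proteasome and the replication fork supply most of the genes that a dividing cell cannot lose.

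The library held 46829 guides on 6735 exon-exon junctions. Of the tested genes, 479 were typed as essential under Cas13 in the deposited table and 350 as not essential, and 394 were control genes chosen as non-essential. A further 963 guides were non-targeting. The criterion behind the type was not given in the sources used here and may have used these same fold changes, so a difference between types is described and not tested. A tested essential gene had many more guides than a control gene: the median over all genes of a type was 40 guides for the essential type, 32 for the type not essential and 6 for control genes. Read depth was not stated, but the values are ratios of whole numbers, and the smallest whole number that a value allows (its implied number) had a median over guides of 92 and 139 at Day 14 in replicates 1 and 2. At Day 21 it was 67 and 108. An implied number of 1 is the lowest value a guide can take. It was held by 465 guides in replicate 1 and 1259 in replicate 2 on Day 14, and by 1419 and 1460 on Day 21. The third week brought 1231 guides of replicate 1 and 736 of replicate 2 down to this floor, while 277 and 535 left it. A guide at the floor on both days has a fixed centred change of 0.33 in replicate 1 and 0.25 in replicate 2, whatever its true abundance, and this applied to 188 and 724 guides.

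Guides against essential genes were lower again in the third week, by less than in the second. Over the 479 genes typed essential, the median change of the third week was −0.26 in replicate 1 and −0.11 in replicate 2. In the second week (Day 7 to Day 14) the same medians were −0.52 and −0.44, and in the first week (Day 0 to Day 7) −0.030 and −0.19. Of the replicates, the first had the smaller loss in the first week and the larger loss in the third. Genes typed not essential had medians of −0.066 and −0.012 in the third week, and control genes of −0.039 and −0.024, so that essential genes were lowest in both replicates. In levels against Day 0, each centred on the non-targeting median of its own library, the essential genes had a median of −0.49 and −0.58 at Day 14 and −0.74 and −0.68 at Day 21. The same medians over control genes were −0.11 and −0.013 at Day 14 and −0.042 and −0.0061 at Day 21.

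**Figure D1:**
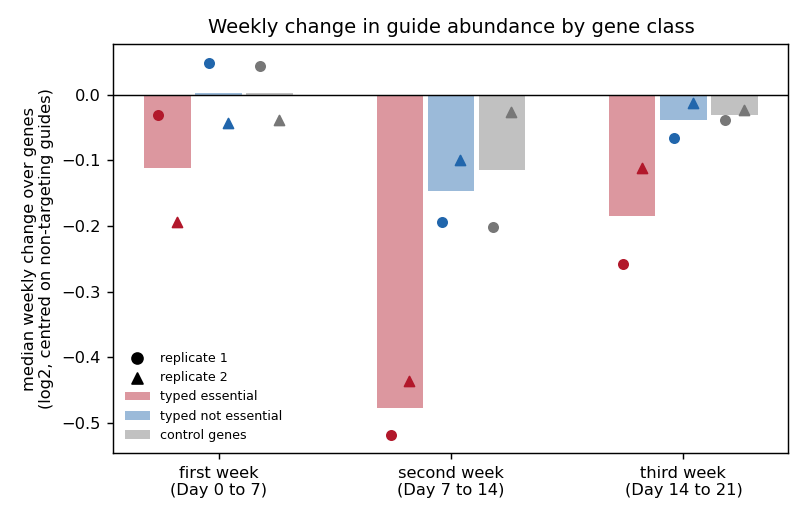
Median over genes of the weekly change in guide abundance (vertical axis, log2, centred on non-targeting guides) in each of the 3 weeks (horizontal axis), for genes typed essential, genes typed not essential and control genes. Bars are the mean of the 2 replicates and points are the replicates; the essential bar of the third week, with replicate values of −0.26 and −0.11, is shorter than that of the second week, with −0.52 and −0.44.

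Over guides in place of genes, the essential type had a median change of −0.12 in replicate 1 and −0.037 in replicate 2, a mean of −0.078 ± 0.058 (SD, n = 2). The type not essential had 0.011 ± 0.0072 and the control guides 0.013 ± 0.011 (SD, n = 2). With 2 replicate values the smallest p of a two-sided sign-flip test (exact) is 0.5, so none of these medians was tested. The guide distribution was skewed to low values. Taking means over guides in place of medians, for the non-targeting guides as well, gave −0.17 for essential guides. It also turned the sign of the other types, to −0.031 for guides against genes typed not essential and −0.010 for control guides. By junction category, essential guides had medians of −0.12 and −0.035 on junctions that the table calls common and −0.12 and −0.043 on those it calls single_unique, in replicates 1 and 2. Within the type not essential, guides on partial_unique junctions had medians of −0.056 and −0.016, below those on common junctions at 0.038 and 0.042. What defines each category was not given in the sources used here.

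No single gene passed the test of the third week. Limma, with the mean of the 2 replicate changes tested against 0 and Benjamini-Hochberg adjustment over all 1223 genes, called 0 genes (0%), and the lowest adjusted p was 0.29. Before adjustment, 126 genes (10.3%) had a p under 0.05 with a lower value and 17 (1.39%) with a higher one. The median half-width of a gene's 95% interval was 0.34. The same limma test over all 46829 single guides also called 0 guides (0%), with 2622 at an unadjusted p under 0.05, of which 2165 were lower. For comparison, the same limma test called 238 genes (19.5%) in the second week, 233 of them lower, and 37 genes (3.03%) in the first week, all lower. The count of the third week depended on the treatment of the values: 13 genes were called without centring on non-targeting guides, 1 with the median over guides, and 23 when guides with an implied Day 0 number under 50 were left out, an alternative chosen after seeing the data. All of these calls were lower, and many were of control genes. Without centring they were the control genes SUCO, C11orf24, RBPJ, MTHFD1L, C8orf58, ASXL1 and DEPDC1, with 3 to 8 guides. The others without centring were SNRPC, RPS14, RPL19, LSM7, HNRNPL and RPL4, typed essential. The call with the median over guides was C11orf24, and the 23 also held genes of both types. With replicate 1 alone, and the spread taken from the 3 weekly changes fitted together, so that the lone value is assumed to vary like those of the other weeks, limma called 2 genes, RBPJ and ZBTB44, both control genes.

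By Pearson correlation over all genes, the replicates followed each other less closely in the third week than before. Across the 1223 genes, the Pearson correlation between replicates was 0.74 in the first week, 0.76 in the second and 0.25 in the third. Among essential genes it was 0.90, 0.85 and 0.31. By Spearman correlation the 3 weeks had 0.39, 0.59 and 0.25 over all genes, a smaller gap from the first week. Genes typed not essential had 0.21, 0.41 and 0.28, so there the third week was not below the first. The Pearson correlation of the third week was larger for genes with more guides, at 0.44 over the 668 genes with at least 16 guides. It was 0.53 over the 499 genes with at least 30, where the Spearman correlation was 0.55 in the first week and 0.50 in the third. For non-targeting guides the Pearson correlation of the third week was −0.065. These are correlations across genes or guides, which are not independent replicates, and the Day 14 and Day 21 libraries of a replicate enter every one of its points. No correlation between the changes of the second and the third week is given, since both use the Day 14 library.

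**Figure D2:**
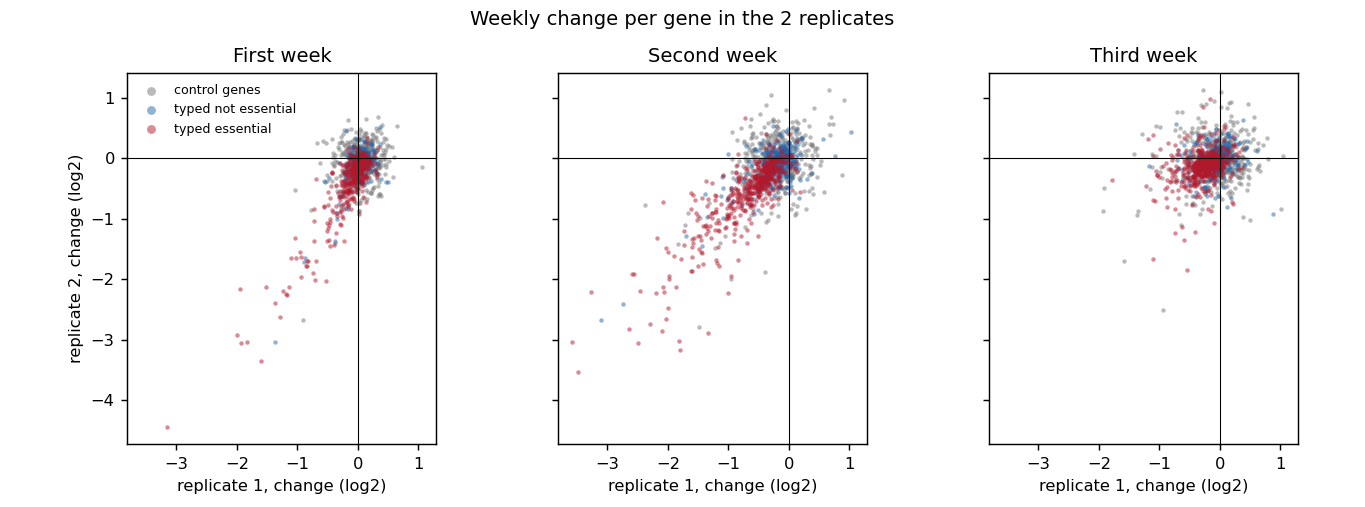
Weekly change per gene (log2, centred on non-targeting guides) in replicate 1 (horizontal axis) against replicate 2 (vertical axis) for the first, the second and the third week, with 1 point for each of the 1223 genes, coloured by type. The points of the first and second week stretch towards low values in both replicates, with correlations of 0.74 and 0.76, and those of the third week lie around 0 with a correlation of 0.25.

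Since no gene was called, genes are described by whether both replicates lay on the same side of a limit of 0.25, a class with no test of its own. The class names describe the third week alone and require no earlier loss. In the first week 289 of the 350 genes typed not essential were already within 0.25 of 0 in both replicates. NSD1 counts as recovering although its level at Day 14 was above Day 0, at 1.09 and 0.61. By that rule 139 genes (11.4%) were still falling in the third week, with a change below −0.25 in both replicates, 535 (43.7%) were at a plateau within 0.25 of 0 in both, and 20 (1.64%) were recovering with a change above 0.25 in both. The other 529 genes did not meet any of these rules. Among essential genes 87 of 479 (18.2%) were still falling, 186 (38.8%) were at a plateau and 0 were recovering, whereas 325 of the same 479 had been below −0.25 in both replicates in the second week. Control genes had 38 of 394 (9.64%) still falling, 117 at a plateau and 17 recovering, and these genes have few guides and a wider spread. Genes typed not essential had 14 of 350 still falling, 232 (66.3%) at a plateau and 3 recovering. By sign alone, 577 genes (47.2%) were below 0 in both replicates and 177 (14.5%) above 0 in both. Of the essential genes, 329 (68.7%) were below 0 in both and 25 above, against 113 (28.7%) and 84 of the control genes. A plateau in the sense of a measured bound, with the whole 95% interval within 0.5 of 0, was met by 519 genes (42.4%), among them 173 of the essential type.

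The 10 genes with the lowest moderated t and the same sign in both replicates included 6 typed essential, and none was called. All 10 were below −0.6 in both replicates. HNRNPL, an RNA-binding protein that regulates splicing, had a change of −0.87 in replicate 1 and −0.81 in replicate 2, a mean of −0.84 ± 0.11 (SE) over 40 guides with a limma adjusted p of 0.394. Without guides at the floor on Day 14 or Day 21 its mean was −0.41, and over guides whose implied number at Day 14 was 50 or more it was −0.36. Its level against Day 0 went from −1.19 and −1.85 at Day 14 to −1.99 and −2.64 at Day 21, so that both replicates were lower on the later day. Its 5 junctions did not move alike. The one at chr19:38844104-38845649 was at −1.80 and −1.06, and the one at chr19:38846090-38847315 at −1.10 and −1.70, while that at chr19:38840376-38840487 was at −0.099 and 0.29. Junction coordinates are those of the deposited table, with hg38 as the only genome build in the submitters' processing notes, and these junctions lie inside the HNRNPL gene on the minus strand.

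SNRPC codes for the C protein of the U1 snRNP, which recognises splice sites at the 5′ end of introns. Its weekly changes were −0.038 and −0.31 in the first week, −0.66 and −1.005 in the second and −1.10 and −1.66 in the third, in replicates 1 and 2. Of its 12 guides, 10 were below 0 in both replicates in the third week and 0 above 0 in both, whereas 27.8% of all guides were below 0 in both and 24% above. Both of its junctions, at chr6:34767997-34770290 and chr6:34770395-34773445, shared the direction, with means of −1.68 and −1.23. The limma adjusted p of SNRPC was 0.394, and the difference between the third and the first week was −1.21, which was not called either. None of its guides was at the floor on Day 14 or Day 21.

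LSM7, a member of the LSm ring that binds U6 snRNA, was at −1.06 and −0.70 over 8 guides of a single junction. It had already reached −2.94 and −3.10 at Day 14 and stood at −3.94 and −3.78 at Day 21, and without guides at the floor on either day its change was −0.58. Of the ribosomal proteins in this group, RPL4 was at −0.75 and −0.84 over 40 guides, RPL35A at −0.69 and −0.67 over 16, and RPS12 at −0.89 and −0.65 over 16. RPL4 and RPL35A had been low from the first week, with Day 7 levels of −1.02 and −1.65 for RPL4 and −0.85 and −1.78 for RPL35A, and RPS12 had been closer to 0, at −0.36 and −0.44. Without guides at the floor on Day 14 the mean of RPL4 was −1.32, and without those at the floor on either day −0.66. RPL4 showed the same unevenness as HNRNPL over its 5 junctions, from a mean of −1.30 at chr15:66499652-66500055 to −0.11 at chr15:66502750-66503057. At Day 21, 13 of its 40 guides in either replicate were at the floor, against 6 and 11 at Day 14. Of RPL35A's 16 guides, 4 were below 0 and 4 above 0 in both replicates, and with the median over guides its value was −0.18. Over only those guides whose implied number at Day 14 was 50 or more, the mean was 0.0093 for RPL35A and −0.080 for RPS12.

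The other 4 were control genes. C11orf24, with 3 guides on 1 junction, had the lowest adjusted p of all genes (0.286, limma with Benjamini-Hochberg adjustment), at −1.59 and −1.71 in the third week. Its level was already −1.98 and −2.47 at Day 14 and reached −3.51 and −4.16 at Day 21, below the control median at both days, with 2 of its 3 guides below 0 in both replicates in the third week. MTHFD1L, a mitochondrial enzyme of folate-dependent one-carbon metabolism, was at −1.37 and −0.94 over 5 guides, and stood at −3.73 and −2.63 at Day 21. C8orf58 was at −1.36 and −0.88 over 3 guides and DEPDC1 at −0.68 and −0.92 over 8. The limma adjusted p was 0.394 for these 3 genes.

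Few genes had their lowest weekly change in the third week, a rule that does not require a loss. The shares were not compared with those that spread between libraries alone would give. In 84 of 1223 genes (6.87%) the change of the third week was the lowest of the 3 weekly changes in both replicates, and the share was 2.92% among essential genes (14 of 479), 7.71% among genes typed not essential and 10.9% among control genes. Of those 84, 6 were below −0.5 in both replicates. They were SNRPC, the transcription factor RBPJ, which mediates Notch signalling, and C8orf58, ZMYM4, DEPDC1 and CALU, an endoplasmic reticulum calcium-binding protein, and all but SNRPC were control genes with 3 to 8 guides. This group was chosen after its values were seen. RBPJ was at −1.93 in replicate 1 and −0.88 in replicate 2, and ZMYM4 at −1.16 and −0.51.

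At the high end, 9 of the 10 genes with the highest moderated t were control genes, and none was called, with limma adjusted p of 0.394 to 0.395. SIRT2, an NAD-dependent protein deacetylase, had the highest moderated t, at 0.57 and 0.67, and all 6 of its guides were above 0 in both replicates. Its weekly change had been −0.18 and −0.56 in the second week, and its level against Day 0 at Day 21 was 0.40 in both replicates. The histone methyltransferase NSD1 was at 0.44 and 0.47 in the third week and had a level above Day 0 at both later days, with 1.09 and 0.61 at Day 14 and 1.59 and 1.097 at Day 21. APOO, of the mitochondrial inner membrane, was at 0.56 and 0.50, and the SUMO ligase PIAS2 at 0.55 and 0.47. CYB561, an ascorbate-dependent membrane cytochrome, was at 0.47 and 0.90, the tight junction scaffold TJP1 at 0.46 and 0.39, ARFIP1 at 0.37 and 0.48, the spectrin SPTAN1 at 0.54 and 0.32 and the zinc transporter SLC39A9 at 0.33 and 0.44. These control genes had 3 to 6 guides. The exception was POLR2J, a subunit of RNA polymerase II typed not essential, with 4 guides and changes of 0.38 and 0.62. The other 2 genes typed not essential that were above 0.25 in both replicates were SRCAP, a chromatin remodeller, at 0.45 and 0.27, and RPS15A at 0.25 and 0.32.

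The genes that dropped out first were followed separately, since a choice on the Day 7 library shares no library with the third week. A centred Day 7 level of −0.5 or lower in both replicates was found for 42 genes, 36 of them typed essential, and 23 of them coded for ribosomal proteins, 19 of the large and 4 of the small subunit. Their median weekly change was −1.32 in the first week, −1.60 in the second and −0.37 in the third, with −0.42 in replicate 1 and −0.23 in replicate 2 in the third. Of the 42, 15 (35.7%, against 11.4% of all genes) were still falling by the 0.25 rule, 5 (11.9%, against 43.7%) were at a plateau and 0 were recovering. Both replicates were below 0 in 29 (69.0%, against 47.2%), with RPL6 as the single gene above 0 in both. An unadjusted p under 0.05 with a lower value was found for 17 of the 42 (40.5%, against 10.3%), and none was called. Over all genes typed essential, as 36 of the 42 were, 18.2% were still falling, 38.8% at a plateau and 68.7% below 0 in both. An unadjusted p under 0.05 with a lower value was found by limma for 15.7% of those essential genes. The share below 0 in both was thus close to that of the essential type.

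Part of this group was at the floor. Of its 1174 guides, 113 (9.63%) in replicate 1 and 273 (23.3%) in replicate 2 were at the lowest possible value at Day 14, and 219 (18.7%) and 305 (26%) at Day 21. Leaving out guides at the floor on Day 14 or Day 21 moved the group's median from −0.37 to −0.55, and leaving out those at the floor on Day 14 alone, an alternative chosen after seeing the data, moved it to −0.81. With the median over guides in place of the mean, 30 genes met the Day 7 limit, and the group's median was −0.18.

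**Figure D3:**
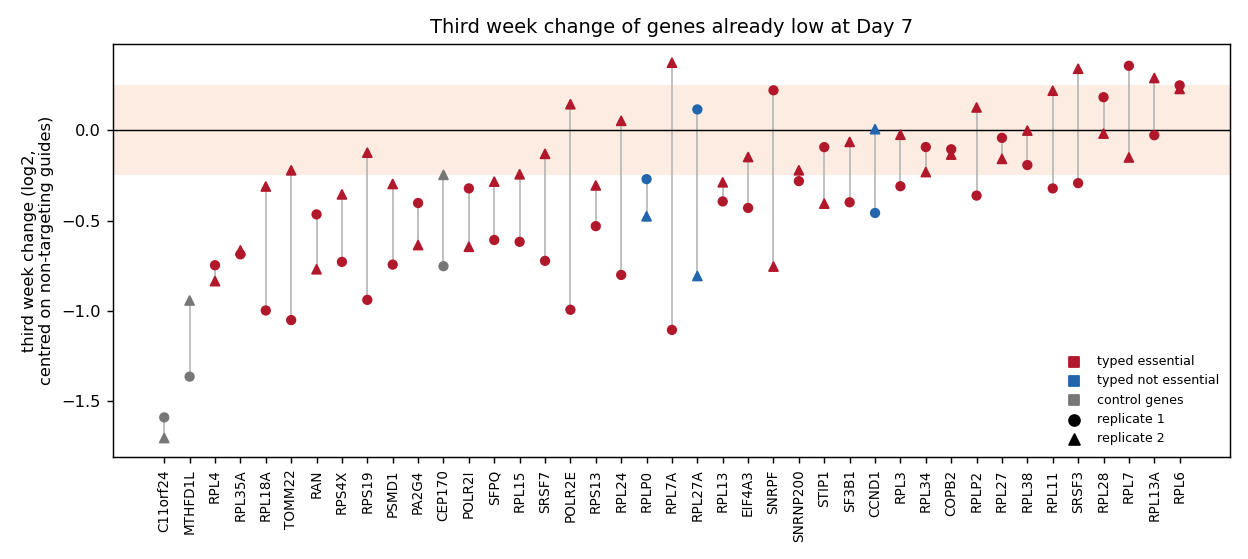
Change of the third week (vertical axis, log2, centred on non-targeting guides) for 41 of the 42 genes with a Day 7 level of −0.5 or lower in both replicates, ordered by their mean. Circles are replicate 1, triangles are replicate 2, lines join the replicates of a gene and the shaded band marks 0.25 on either side of 0; 28 of the genes drawn have both replicates below 0, and RPL6 alone has both above.

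Within it, the small-subunit genes had a lower median than the large-subunit genes. The 4 small-subunit genes had a median of −0.54 and all were below 0 in both replicates, and the 19 large-subunit genes had a median of −0.17 with 10 below 0 in both. The difference between the subunits was not tested.

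Several of the most depleted genes had a mean close to 0 in the third week. RPL13A, a large-subunit protein covered by 8 guides on the junction at chr19:49490576-49490778, changed by −3.15 and −4.45 in the first week, −0.90 and −1.37 in the second and −0.027 and 0.29 in the third. The difference between the third and the first week was 3.93 ± 0.38 (SE), with a limma adjusted p of 0.0420, and RPL13A was the only gene called in that comparison (0.0818% of genes). Without centring the difference was 3.96 (limma adjusted p 0.111) and with the median over guides 4.31 (0.744), so the call was lost there while the size was kept. At the floor were 0 of its 8 guides on Day 14 and 1 on Day 21 in replicate 1, and 4 on each day in replicate 2. Over the 3 guides that were at the floor in neither replicate on either day, the difference was 1.51, with a 95% interval of 0.83 to 2.19, and was not called (limma adjusted p 0.743). Over the 4 guides above the floor on Day 14, a choice made after seeing the data, it was 2.75 and was called (limma adjusted p 0.0105). The change of the third week itself was 0.13 over all guides, 0.081 over those 3 guides and −0.26 over those 4.

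SRSF3, a splicing factor of the SR family, lost most of its guides in the second week, at −3.49 and −3.54, and was at −0.29 and 0.34 in the third. Its levels at Day 21 were −4.43 and −4.16. Of its 16 guides, 6 in replicate 1 and 5 in replicate 2 were at the floor on Day 14, and without those the change of the third week was −0.79. RPL7 had a change of 0.36 and −0.15, after −3.58 and −3.05 in the second week, with 6 and 9 of 16 guides at the floor on Day 14, and without those it was at −1.30. Leaving out guides by their Day 14 value uses a library that is part of the change, and so favours lower values of the third week.

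RPL6 was the highest of the 42, at 0.25 and 0.23, with a mean of 0.24 ± 0.11 (SE) and a limma adjusted p of 0.441. Its level rested at −1.58 and −2.40 at Day 14 and at −1.26 and −2.15 at Day 21, and 0 guides in replicate 1 and 2 of 16 in replicate 2 were at the floor on Day 14. Its junctions differed: chr12:112406037-112406293 had 0.49 and 0.79, and chr12:112406342-112406746 had 0.0088 and −0.33. RPL28 was at 0.18 and −0.018, RPL27 at −0.041 and −0.16, RPL38 at −0.19 and −0.0011 and RPL11 at −0.32 and 0.22, all with adjusted p of at least 0.720 by limma. Their 95% intervals show how much movement the data allow, for example from −0.42 to 0.22 for RPL27 and from −0.44 to 0.24 for RPL38. RPL7 was among the 5 lowest genes at Day 21, as were RPL27A, RPLP2 and SF3B1, a core component of the SF3B splicing complex. RPL27A, typed not essential, was at 0.12 and −0.81, RPLP2 at −0.36 and 0.13 and SF3B1 at −0.40 and −0.064, so the replicates of the first 2 disagreed in sign. SF3B1 stood at −4.46 and −5.27 at Day 21, with 7 and 9 of its 20 guides at the floor.

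**Figure D4:**
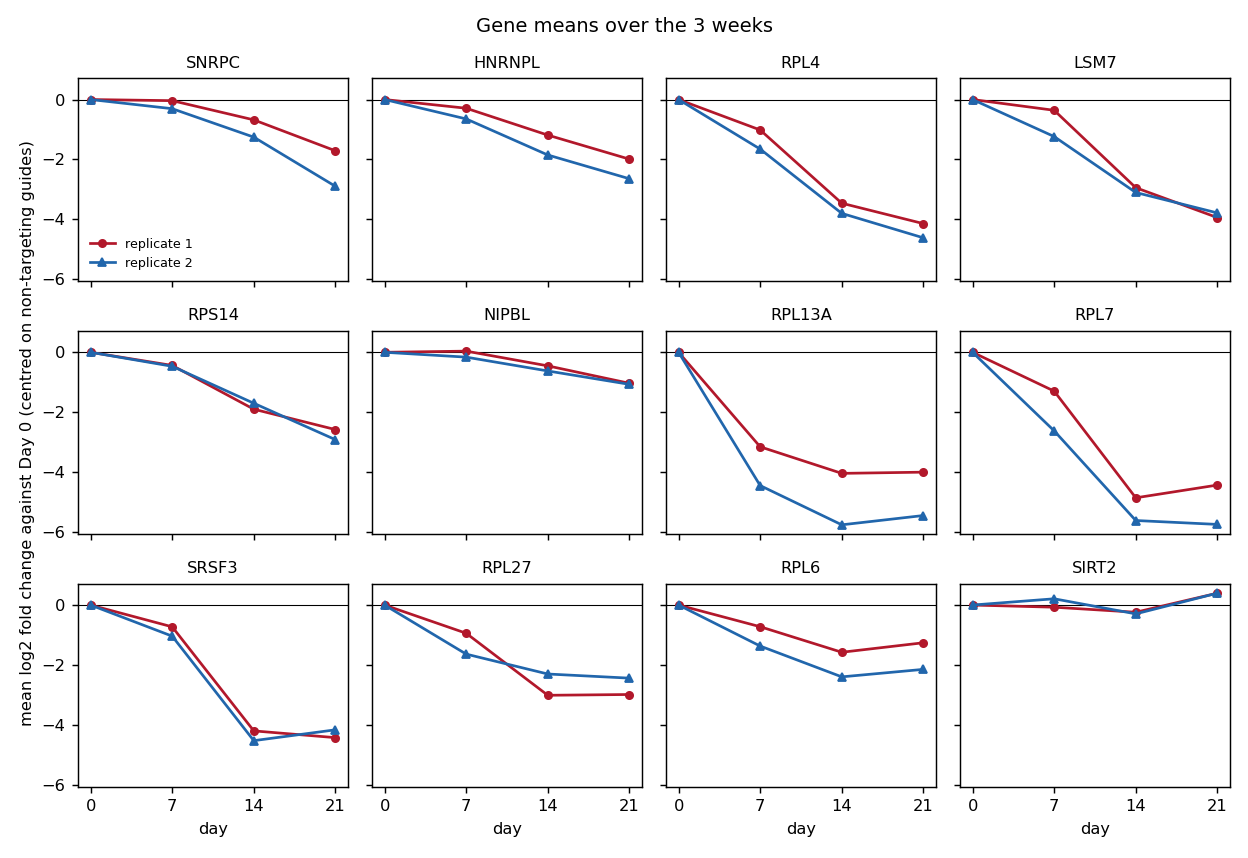
Mean log2 fold change against Day 0, centred on the non-targeting median of each library (vertical axis), at Day 0, 7, 14 and 21 (horizontal axis) for 12 named genes; red circles are replicate 1 and blue triangles replicate 2. The lines of SNRPC, HNRNPL and NIPBL keep going down after Day 14, that of RPL27 stays within 0.25 of its Day 14 level, those of RPL13A and SRSF3 move by −0.027 and 0.29 and by −0.29 and 0.34, and that of SIRT2 ends above 0 at 0.40.

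Single guides moved further than gene means. In the third week 2496 guides of replicate 1 and 1690 of replicate 2 had a change of −2 or lower, and 293 (0.626% of all guides) in both, which is 11.7% of the first set and 17.3% of the second. Guides against genes typed essential were 59.4% of the library and 84.6% of those 293 (248 guides), and 0 of 963 were non-targeting guides, which allows a share of up to 0.312%. The largest numbers per gene were in UTP20, a ribosome biogenesis factor, with 8 of 333 guides, the coat protein gene COPA with 7 of 210 and the ubiquitin ligase UBR4, typed not essential, with 7 of 559. A change of 2 or higher was found for 395 guides of replicate 1 and 719 of replicate 2, and for 19 guides of 18 genes in both (0.0406% of all guides), 4.81% of the first set and 2.64% of the second. Of these 19, 18 (94.7%, against 59.4% of the library) targeted genes typed essential, among them EIF2S1 with 2 guides and RPL3, RPL7, SF3B1 and HNRNPK with 1 each. On Day 14, 14 of the 19 were at the lowest possible value in replicate 1 and 16 in replicate 2. Most guides at that value on Day 14 were also of the essential type, 421 of 465 in replicate 1 and 1126 of 1259 in replicate 2.

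Against the second week, no gene was called as different. The difference between the changes of the third and the second week was tested by limma and called for 0 genes (0%) after Benjamini-Hochberg adjustment, with a lowest adjusted p of 0.16. Of the 187 genes with an unadjusted p under 0.05, 171 had a higher (less negative) change in the third week and 16 a lower one. Both changes use the Day 14 library, which therefore counts with double weight in this contrast. Limma called 8 genes without centring and 9 with the median over guides. The difference between the third and the first week, which share no library, had 76 genes at an unadjusted p under 0.05, 28 lower and 48 higher.

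By molecular machine, 521 tested genes fell into 23 lists, and the median of every list was below 0 in both replicates. Control genes also had medians below 0, at −0.039 and −0.024 in replicates 1 and 2. A median below 0 is therefore not particular to the lists. The median over all tested genes was −0.099, at −0.13 in replicate 1 and −0.059 in replicate 2, and 17 of the 23 lists lay below it. Lists differ in gene type from all tested genes, of which 479 of 1223 were typed essential. That type held 13 of 17 small-subunit and 28 of 34 DNA replication genes, and 13 of 38 in the mitochondrial list. The genes typed essential had a median of −0.18. Of all tested genes, 11.4% were still falling, 43.7% were at a plateau and 47.2% were below 0 in both replicates. For genes typed essential these shares were 18.2%, 38.8% and 68.7%, and the list counts that follow are to be read beside them. How far the list medians follow gene type was not tested. No member of any list was called.

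**Figure D5:**
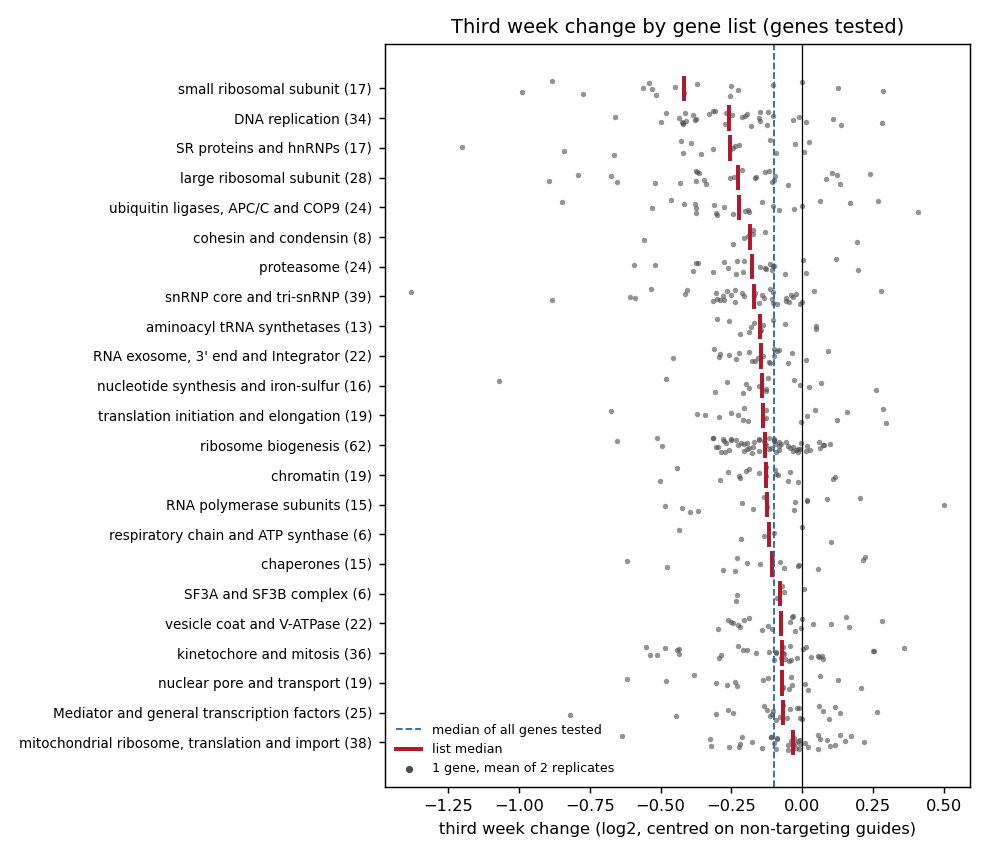
Change of the third week (horizontal axis, log2, centred on non-targeting guides) for the tested genes of 23 lists (rows, with the number tested). Points are genes (mean of 2 replicates), red bars list medians and the dashed line the median of all tested genes, −0.099; the small ribosomal subunit has the lowest median, −0.42, and the mitochondrial list the highest, −0.031.

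The small ribosomal subunit, which decodes mRNA, had the lowest list median, −0.42, with −0.43 in replicate 1 and −0.35 in replicate 2. Of its 17 tested genes, 8 (47.1%) were still falling, 1 was at a plateau, 1 was recovering and 13 were below 0 in both replicates, against 11.4%, 43.7%, 1.64% and 47.2% of all genes. An unadjusted p under 0.05 with a lower value was found for 9 of the 17, against 10.3% of all genes. Among genes typed essential, as 13 of the 17 were, these shares were 18.2%, 38.8%, 0%, 68.7% and 15.7% in the same order. RPS14 was lowest at −0.75 and −1.23 over 8 guides, and went from −1.90 and −1.70 at Day 14 to −2.58 and −2.92 at Day 21. RPS15A, typed not essential, was highest, at 0.25 and 0.32. The large subunit, which forms the peptide bond, had a lower median than the small in the first week (−1.29 against −0.52), similar ones in the second (−1.20 and −1.05), and −0.23 in the third, with 6 of 28 still falling and 14 below 0 in both. Its lowest member in the third week was RPL19 at −1.10 and −0.69. The difference between the lists was not tested.

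Splicing genes had medians between −0.25 and −0.079. Of 17 SR proteins and hnRNPs, 4 were still falling and 12 were below 0 in both replicates, and SON, a nuclear speckle protein needed for splicing of weak sites, was lowest at −0.55 and −1.85, a wide gap between replicates with 5 of its 8 guides at the floor in replicate 2 at Day 21. Of 39 snRNP core and tri-snRNP genes, 8 (20.5%) were still falling, 18 (46.2%) were at a plateau and 30 (76.9%) were below 0 in both. Typed essential were 31 of the 39, and over all genes of that type the shares were 18.2%, 38.8% and 68.7%. Over all tested genes they were 11.4%, 43.7% and 47.2%. SNRPC was lowest in the snRNP list. SNRPD1, an Sm core protein, was highest in it at −0.29 and 0.84, with replicates of opposite sign. The 6 SF3A and SF3B genes had a median of −0.079 after −0.72 in the second week, and 0 of them were still falling; SF3A1 was lowest at −0.35 and −0.12 over 111 guides, and SF3B4 highest at 0.022 and −0.012.

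DNA replication had the lowest median after the small subunit, −0.26, with 28 of its 34 genes typed essential. Still falling were 9 (26.5%), at a plateau 9 (26.5%), below 0 in both replicates 24 (70.6%) and recovering 0. Over all genes typed essential those shares were 18.2%, 38.8%, 68.7% and 0%, and over all tested genes 11.4%, 43.7%, 47.2% and 1.64%. POLE2, a subunit of DNA polymerase epsilon, was lowest in the list at −1.05 and −0.28. DONSON, a replication fork protein, was highest at 0.21 and 0.35. Ubiquitin ligases, the anaphase-promoting complex and the COP9 signalosome had a median of −0.22 with 6 of 24 still falling. The ubiquitin-conjugating enzyme UBE2D3 was lowest in that list at −1.23 and −0.47, and CDC23, of the anaphase-promoting complex, highest at −0.17 and 0.98. The proteasome had a median of −0.18, with 5 of 24 still falling and 12 at a plateau. Its ATPase subunit PSMC6 was lowest at −0.81 and −0.38 over 67 guides, and 8 of its 10 junctions were below 0 in both replicates. PSMB3 was highest at 0.19 and 0.21.

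NIPBL, the cohesin loader, was among the well covered genes below 0, with 249 guides on 34 junctions. Its weekly changes were 0.039 and −0.16 in the first week, −0.51 and −0.52 in the second and −0.65 and −0.47 in the third, so the third week was about as large as the second. In the third week 123 of the 249 guides were below 0 in both replicates and 24 above 0 in both, and 26 of the 34 junctions were below 0 in both with 0 above. The mean was −0.56 ± 0.12 (SE), with a limma adjusted p of 0.394. The lowest junction mean was −1.57 at chr5:37001078-37002661 and the highest −0.028. The other cohesin and condensin genes were closer to 0: of all 8, 1 was still falling, the list median was −0.18 and NCAPH, a condensin subunit typed not essential, was highest at 0.13 and 0.26.

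Translation factors had a median of −0.14 with 3 of 19 still falling. The cap-binding protein EIF4E was lowest at −0.87 and −0.48 over 21 guides, after −0.37 and −0.74 in the second week, with a mean of −0.67 that was −0.39 over guides whose implied number at Day 14 was 50 or more. DENR, a factor in reinitiation and ribosome recycling, was highest at 0.071 and 0.52. Aminoacyl tRNA synthetases had a median of −0.15 with 1 of 13 still falling and 9 at a plateau, between YARS at −0.35 and −0.25 and KARS at 0.12 and −0.023. The 62 ribosome biogenesis genes had a median of −0.13, with 3 still falling, 35 at a plateau and 42 below 0 in both replicates. RSL24D1 was the lowest of them at −1.17 and −0.13 and NOP16 the highest at 0.097 and 0.099.

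Among genes of transcription and RNA ends, RNA polymerase subunits had a median of −0.13, with 2 of 15 still falling and 1 recovering. POLR2I, an RNA polymerase II subunit, was lowest at −0.32 and −0.65, with a junction at chr19:36114251-36114338 at −0.72 and −1.53 and another at chr19:36113817-36114014 at 0.25 and 0.13. Mediator and general transcription factors had a median of −0.067 with 16 of 25 at a plateau, GTF3C4 lowest at −0.42 and −1.22 over 4 guides and MED4 highest at 0.12 and 0.41. Chromatin genes had a median of −0.13 and 0 of 19 still falling. The transcriptional cofactor HCFC1 was highest there at 0.053 and 0.18 over 135 guides, with 9 of 17 junctions above 0 in both replicates and 1 below. The RNA exosome, 3′ end and Integrator list had a median of −0.15, with 3 of 22 still falling, EXOSC5 lowest at −0.51 and −0.40 and SSU72 highest at 0.13 and 0.054.

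Nuclear transport held genes at both ends. KPNB1, the importin that carries cargo into the nucleus, had 130 guides on 17 junctions and was at 0.31 and 0.11, after −0.84 and −0.31 in the second week. Of its guides 58 were above 0 in both replicates and 18 below, and of its junctions 11 were above 0 in both and 3 below. Its mean of 0.21 ± 0.12 (SE) had a limma adjusted p of 0.513, with 5 and 16 guides at the floor on Day 14. RAN, the GTPase that gives that transport its direction, was lowest in the list at −0.47 and −0.77 over 8 guides. The list of 19 had a median of −0.070, with 2 still falling and 9 at a plateau.

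Kinetochore and mitosis genes had a median of −0.072 with 5 of 36 still falling and 20 at a plateau. Its extremes belong to 1 complex, NDC80: SPC25, typed essential, was at −0.79 and −0.32, and SPC24, typed not essential, at 0.61 and 0.11. Chaperones had a median of −0.11 with 2 of 15 still falling, the mitochondrial chaperonin HSPD1 lowest at −0.88 and −0.36 and the cytosolic chaperonin subunit TCP1 highest at −0.014 and 0.45. Vesicle coat and V-ATPase genes had 0 of 22 still falling and a median of −0.074, between ATP6V1H at −0.36 and −0.24 and TMED2 at 0.075 and 0.49.

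The list nearest to 0 was that of the mitochondrial ribosome, translation and import, with a median of −0.031. It had 0 of 38 still falling and 28 (73.7%) at a plateau, and its median in the second week had been −0.17. The import receptor TOMM22 was its lowest member at −1.05 and −0.22, and MRPL49 its highest at 0.45 and −0.012. The 6 respiratory chain and ATP synthase genes had a median of −0.12, from NDUFB10 at −0.51 and −0.36 to COA5 at −0.15 and 0.35. In the nucleotide synthesis and iron-sulfur list, with a median of −0.14 and 3 of 16 still falling, the cysteine desulfurase NFS1 was lowest at −1.78 and −0.36 and CIAPIN1 highest at 0.64 and −0.12.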

How the data were processed

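Guide abundance was measured in 8 libraries of A375 cells. The authors deposited a single table of log2 fold changes against Day 0, and, per the file headers, each row holds 1 guide on 1 day in 1 replicate. Cutadapt 3.5 and Bowtie 1.1.2, and the build hg38, are listed per the submitters' processing notes without a stated role; the pseudocount, the scaling and any filter were not given in the sources used here. Within a replicate, the same Day 0 library is the reference of every value.

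The change of the third week was computed per guide as Day 21 minus Day 14, centred on the median of 963 non-targeting guides (0.054 in replicate 1 and 0.023 in replicate 2), and averaged over at least 3 guides per gene. Single-day levels were centred on the non-targeting median of that day, so differences of printed levels depart from the printed change by 0.067 in replicate 1 and 0.020 in replicate 2. Limma 3.58.1 in R 4.3.3 tested the mean of 2 within-replicate changes against 0, and differences between weekly changes, with empirical Bayes and Benjamini-Hochberg adjustment (threshold 0.05); the calculation was tested on simulated data. Read depth per sample is unknown. Implied numbers come from expressing each value as a fraction whose denominator is not above 2000; they are lower bounds. Limits from a count of 0 use 3 counts and cover counting error only.

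Day 14 and Day 21 libraries are paired by the replicate numbers of the labels and the Day 0 library they share, on which the pairing rests; their deviations from the group means correlated at 0.65 over 46829 guides, to which the shared reference itself contributes. Members, gene lists and limits were chosen with earlier results of these data known; the classes at 0.25 were defined after the values were seen. Named genes are the 10 lowest and 10 highest by moderated t with the same sign in both replicates, since none was called, the 6 smallest and 4 highest changes among genes depleted by Day 7, the lowest and highest of each list, and the 5 lowest at Day 21; genes named outside this rule were chosen after their values were seen. A few genes that the rule names are not reported here. Alternatives covered centring, the summary over guides, guide minimums, the floor, the block, the spread estimate and leaving out each replicate.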

Additional observations from a re-analysis of the deposited data

Results flagged for a closer look

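RPL13A was singled out because its changes under the same contrast with the preceding library differed between weeks by a test of that difference: the change of the third week minus that of the first was 3.93 on the log2 scale (limma adjusted p 0.0420, 95% interval 3.02 to 4.85), with −3.15 and −4.45 in the first week and −0.027 and 0.29 in the third, in replicates 1 and 2. On Day 14, replicate 1 had 0 of its 8 guides at the lowest possible value and replicate 2 had 4 of them there. The difference was 2.75 (limma adjusted p 0.0105) over the 4 guides above that value on Day 14 and 1.51 (limma adjusted p 0.743) over the 3 guides above it on both days.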

How the results depend on the processing

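The number of genes called in the third week, 0, became 13 without centring, 1 with the median over guides (C11orf24) and 23 over guides whose Day 0 implied number was 50 or more, an alternative chosen after seeing the data; leaving out a replicate, with the spread borrowed from the 3 weekly changes fitted together, gave 0 to 2, and 12 genes were called both without centring and with that minimum. Without the replicate block, 0 genes were called and 27 had an unadjusted p under 0.05, and the block changed no call. Guide counts stayed at 0 under all 6 alternatives run for them. Taking means over guides moved the class medians to −0.17 (essential), −0.031 (not essential) and −0.010 (control); leaving out a replicate gave −0.12 to −0.037, 0.0059 to 0.016 and 0.0054 to 0.021. The third week against the first had 0 calls without centring, with medians over guides and without guides at the floor on either day, and 1 without those at the floor on Day 14, and against the second 8 without centring and 9 with medians. The median of the early genes was −0.18 with medians over guides, where 30 genes in place of 42 met the Day 7 limit. It was −0.55 without guides at the floor on either day, −0.81 without those at the floor on Day 14, and −0.42 to −0.23 when a replicate was left out. Of the 23 lists, 14 to 17 lay below the all-gene median under the alternatives run.

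Named genes that changed sign did so as follows. With guides at the floor on Day 14 left out, RPL13A was at −0.26, RPL28 at −0.20, RPL7 at −1.30 and SRSF3 at −0.79, and with those of either day left out SRSF3 was at −0.66. With medians over guides, RPL27 was at 0.090 and RPL38 at 0.17. Over guides whose implied number at Day 14 was 50 or more, POLR2I was at 0.00618, RPL35A at 0.0093 and SF3B4 at −0.056. With the same limit on Day 0, RPL27 was at 0.050, SRSF3 at −0.071 and SSU72 at −0.00711. With centring on control guides SF3B4 was at −0.00810. The values with a single replicate ran from −0.17 to 0.98 for CDC23, −0.12 to 0.64 for CIAPIN1, −0.15 to 0.35 for COA5, −0.023 to 0.12 for KARS, −0.012 to 0.45 for MRPL49, −0.32 to 0.22 for RPL11, −0.027 to 0.29 for RPL13A, −0.81 to 0.12 for RPL27A, −0.018 to 0.18 for RPL28, −0.15 to 0.36 for RPL7, −0.36 to 0.13 for RPLP2, −0.012 to 0.022 for SF3B4, −0.29 to 0.84 for SNRPD1, −0.29 to 0.34 for SRSF3 and −0.014 to 0.45 for TCP1. The cause of these shifts was not tested beyond what each alternative leaves out.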

Other observations

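The cell cycle regulator CCND1, typed not essential and low from Day 7, was at −0.46 and 0.0067 in the third week over 13 guides. It was chosen after its values were seen.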
